A study of Mus musculus with 8 samples.

Results

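Expression of 10 regulators of retinal progenitor cells was followed from the late embryonic to the early postnatal mouse retina. The genes were Pax6, Rax, Six3, Six6, Lhx2, Meis1, Sox2, Sox9, Nr2e1, and Hmga2. They were picked by symbol, with earlier results of these data known, and they are 10 of the 21826 genes in the expression tables. Each had 1 row and a successful estimate in all 8 libraries.

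The retinas came from slc:ICR mice, an outbred albino stock, and the labels name no transgene, deletion, or treatment in any group. Whole retinas were taken at embryonic days 15 and 18 (E15 and E18), and pooled retinas of postnatal days 2, 5, and 8 (P2, P5, and P8) were dissociated with trypsin and sorted for Cd73, a surface enzyme of young photoreceptors. The sort gave a Cd73-positive fraction (Cd73PC) and a Cd73-negative fraction (Cd73NC) at each age, the latter being the mixture of all cells that stained negative. Each of the 8 conditions was read from 1 library, so there are no replicates, no difference below could be set against the variation between animals, and no test was made. Both fractions of an age came from the same pool of retinas.

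Retinal progenitors are the dividing cells that give rise to all neurons and the Müller glia of the retina. Homeobox factors such as Pax6, Rax, Six3, Six6, and Lhx2 first mark the eye field at the front of the neural plate and later keep these cells dividing and able to form many cell types. Most of the factors are shut off in newborn neurons, but several persist in particular mature cells, Pax6 in amacrine and ganglion cells, Sox2 and Sox9 in Müller glia, and Rax in Müller glia and photoreceptors. Hmga2, a chromatin protein of fetal stem cells, is a known target of the let-7 microRNAs and is lost as tissues mature.

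Promoter sequence was looked at because 8 of the genes were lower in Cd73PC than in Cd73NC at each age (Hmga2 at P8 within its bounds), while Rax and Meis1 were not. The mouse promoter windows of RefSeq (build GRCm38.p6) held 10 windows for 8 of the members, namely Pax6, Six3, Six6, Lhx2, Meis1, Sox2, Nr2e1, and Hmga2. Rax and Sox9 had no window, so Meis1 alone stood for the genes that were not lower in Cd73PC at each age. The 250 bases before the start are shown for the window with the most CG dinucleotides (Sox2, chr3:34649745-34649994, plus strand), the window with the fewest (Hmga2, chr10:120476470-120476719, minus strand), and that of Meis1 (chr11:19018970-19019219, minus strand), which stayed within 1.5-fold of its P2 level in Cd73PC. Each is written 5′ to 3′ along the gene, and capitals mark the CG dinucleotides.
Sox2: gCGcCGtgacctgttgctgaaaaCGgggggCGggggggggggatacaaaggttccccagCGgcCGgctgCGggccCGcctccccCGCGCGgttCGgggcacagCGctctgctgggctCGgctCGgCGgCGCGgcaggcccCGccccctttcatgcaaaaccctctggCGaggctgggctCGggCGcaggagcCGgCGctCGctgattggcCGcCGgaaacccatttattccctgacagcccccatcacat
Meis1: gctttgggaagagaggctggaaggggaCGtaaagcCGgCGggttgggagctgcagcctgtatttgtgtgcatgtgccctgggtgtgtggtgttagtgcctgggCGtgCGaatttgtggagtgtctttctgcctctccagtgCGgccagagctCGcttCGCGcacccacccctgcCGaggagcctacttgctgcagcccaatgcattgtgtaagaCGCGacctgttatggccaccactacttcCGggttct
Hmga2: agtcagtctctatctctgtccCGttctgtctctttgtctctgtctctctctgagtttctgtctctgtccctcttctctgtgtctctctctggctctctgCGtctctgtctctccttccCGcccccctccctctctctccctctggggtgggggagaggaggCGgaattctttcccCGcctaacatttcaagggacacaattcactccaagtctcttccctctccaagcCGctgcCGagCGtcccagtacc
The window of Sox2 held 27 CG dinucleotides, that of Meis1 13, and that of Hmga2 8. At least as many as in Sox2 were found in 8.56% of all 32851 windows of this length, at least as many as in Meis1 in 31.5%, and at least as many as in Hmga2 in 43.0%. All 10 member windows held more CG dinucleotides than the median window, with a median of 15 against 6. Their GC content was between 47.6% and 72.8%, beside a median of 52.4% over all windows. Windows were also searched on both strands for the letters TAATCC (the core read by Crx and Otx2), TAATTA (a palindrome read by many homeodomains), and ATTGTT (the core read by Sox factors). None of the 10 member windows held any of these letters, which stood in 6.25%, 4.84%, and 9.42% of all windows. With shares this low, their absence from 10 windows does not set the members apart.

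Expression was given by the authors as FPKM, in which the fragments of a gene are divided by the length of its transcript and by the size of the library, so that levels may be set side by side between genes. Ratios were taken on FPKM + 1, which understates differences of weakly expressed genes, and a gene was counted as higher or lower when the ratio passed 1.5-fold, the threshold of the methods of the study. Relative depth, read from the steps of the lowest FPKM values, was between 0.965 and 1.615 times that of E18, between 11151 and 12412 genes per library reached FPKM 1, and absolute depth is unknown. Cufflinks gave a lower and an upper bound to each FPKM, which describe the estimate within a library only. Of the 80 member values 28 stood above their own upper bound and 0 below the lower one. All 8 values of Rax stood above their bounds, as did 6 of Lhx2, 5 each of Pax6 and Six3, and 4 of Sox2. The transcript of the antigen, Nt5e, was higher in the positive fraction of each sort (97.3 against 2.43 at P2, 131 against 31.4 at P5, 124 against 9.38 at P8). In Cd73NC it was above its E18 level of 2.76 at P5 and P8 but not at P2.

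**Figure D1:**
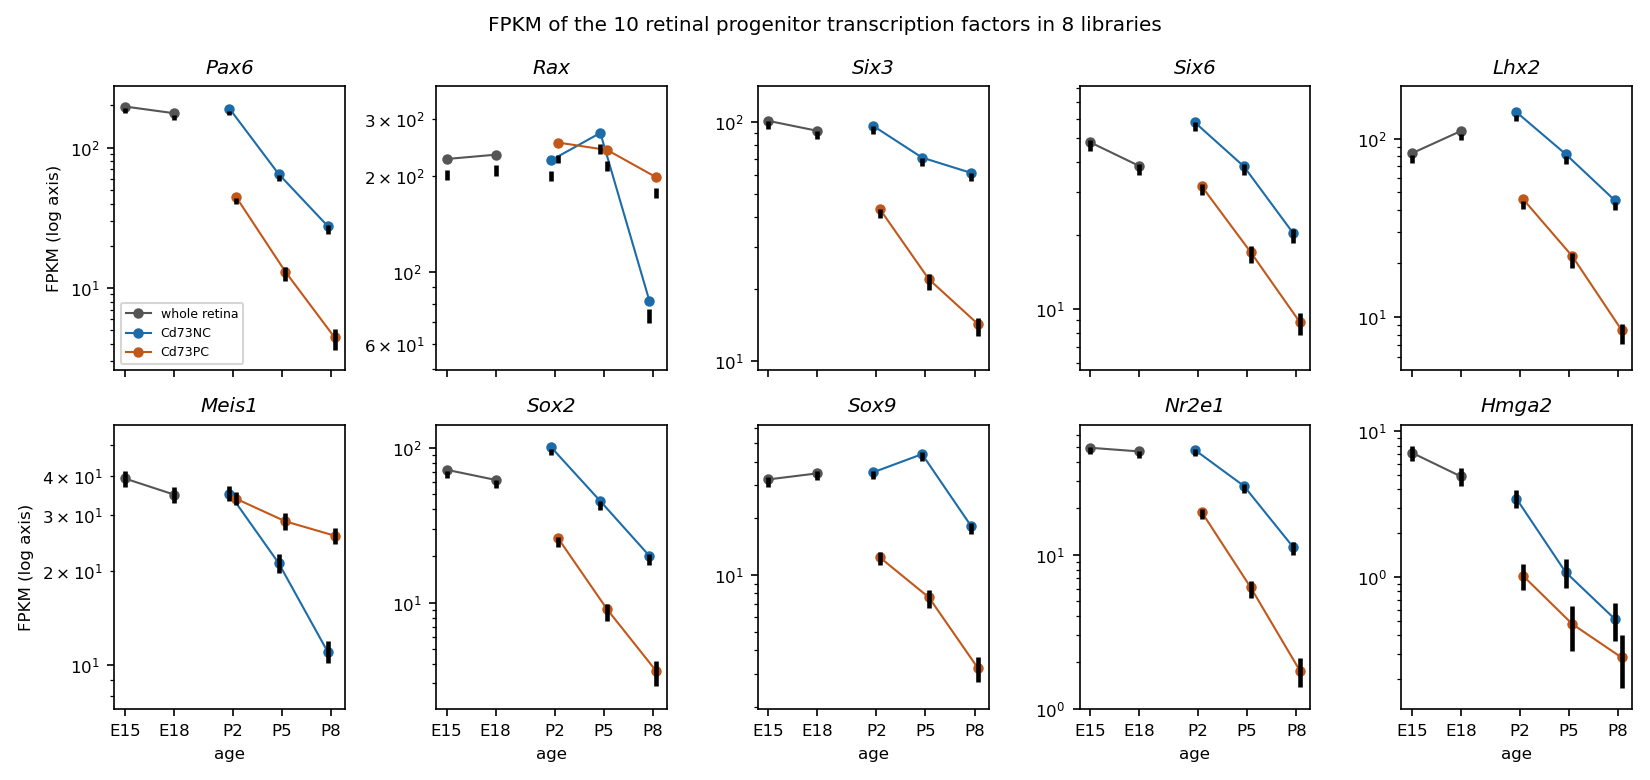
FPKM (log axis) of each of the 10 genes against age in the 8 libraries, with whole retina in grey, Cd73NC in blue, Cd73PC in orange, and the Cufflinks bounds as black bars that in 28 of 80 cases lie below the point. In 8 panels the Cd73PC line lies below the Cd73NC line at all 3 ages (for Hmga2 at P8 with overlapping bounds), while Rax and Meis1 are close between the fractions at P2 and higher in Cd73PC at P8.

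The homeobox factors of the eye field came first. Pax6 (chromosome 2 from 105516602 to 105537226, NCBI37/mm9, plus strand), a paired-domain factor needed for progenitors to keep their full range of fates, had an FPKM of 197 at E15 and 176 at E18, then 190.0, 65.0, and 27.7 in Cd73NC and 44.3, 13.0, and 4.45 in Cd73PC at P2, P5, and P8. The highest library was E15 and the lowest P8 Cd73PC, 44.2-fold apart, the widest range of the 10. Only E15 and P2 Cd73NC were neighbours in this order with bounds that overlapped. On FPKM + 1, Cd73NC was 4.22-fold above Cd73PC at P2, 4.70-fold at P5, and 5.26-fold at P8.

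Rax (chromosome 18 from 66094293 to 66098743, minus strand), the retina and anterior neural fold homeobox factor, without which no eye forms, was the most abundant member. Its FPKM was 225 at E15, 233 at E18, then 224, 272, and 81.5 in Cd73NC and 254, 241, and 198 in Cd73PC at P2, P5, and P8. P8 Cd73NC stood apart below the other 7 libraries, 3.31-fold below P5 Cd73NC on FPKM + 1. From P2 Cd73PC down through P5 Cd73PC, E18, E15, and P2 Cd73NC, each library overlapped the next in its bounds. Cd73PC over Cd73NC was 1.13 at P2 and 0.885 at P5 on FPKM + 1, and 2.41 at P8. Among all genes Rax ranked between 157 and 258 from the top in 7 libraries and 812 in P8 Cd73NC.

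Six3 (chromosome 17 from 86020174 to 86025531, plus strand), a sine oculis factor of the eye field and forebrain, had an FPKM of 101 at E15 and 91.8 at E18, then 96.5, 70.9, and 61.2 in Cd73NC and 43.2, 21.9, and 14.2 in Cd73PC. Of the 10 members Six3 kept the largest share of its P2 level in Cd73NC, with 63.4% at P8. The fractions were 2.21-fold apart at P2, 3.14-fold at P5, and 4.09-fold at P8, with Cd73NC the higher. The bounds of E15, P2 Cd73NC, and E18 overlapped in turn, and no others did.

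Six6 (chromosome 12 from 74040932 to 74045886, plus strand), its close relative, which drives the growth of the progenitor pool, had an FPKM of 48.0 at E15 and 38.4 at E18, then 57.9, 38.3, and 20.5 in Cd73NC and 31.8, 17.1, and 8.84 in Cd73PC. Levels were highest in P2 Cd73NC and lowest in P8 Cd73PC, and bounds of neighbours overlapped for E18 and P5 Cd73NC only. The gap between the fractions at P2 was the narrowest of the 8 genes that were lower in Cd73PC, with Cd73NC 1.798-fold above Cd73PC, and it was 2.17-fold at P5 and 2.18-fold at P8. P2 Cd73PC stood at 82.8% of E18.

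Lhx2 (chromosome 2 from 38206828 to 38225248, plus strand), a LIM homeobox factor that acts in eye field progenitors and later in Müller glia, had an FPKM of 82.7 at E15 and 110.35 at E18, then 141, 82.1, and 45.2 in Cd73NC and 45.7, 21.9, and 8.49 in Cd73PC. It stood 1.33-fold higher at E18 than at E15 on FPKM + 1, the largest such difference in that direction among the 10 and still short of 1.5-fold. Bounds overlapped between E15 and P5 Cd73NC and between P2 Cd73PC and P8 Cd73NC. Cd73NC was 3.04-fold, 3.62-fold, and 4.87-fold above Cd73PC at P2, P5, and P8.

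Meis1 (chromosome 11 from 18780431 to 18918972, minus strand), a TALE homeobox factor that binds DNA with Pbx and Hox partners and is active at the onset of retinal neurogenesis, had an FPKM of 39.2 at E15 and 34.9 at E18, then 35.1, 21.1, and 11.03 in Cd73NC and 33.8, 28.7, and 25.8 in Cd73PC. E15, P2 Cd73NC, E18, and P2 Cd73PC overlapped in turn in their bounds, as did P5 and P8 Cd73PC. At P2 Cd73PC was at 96.2% of Cd73NC, a difference that turned to the other side of 0 under quantile and upper quartile scaling. Cd73PC was 1.34-fold above Cd73NC at P5 and 2.23-fold at P8. As for Rax, the lowest library was P8 Cd73NC.

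The SRY-box factors followed. Sox2 (chromosome 3 from 34548927 to 34551382, plus strand), which keeps neural progenitors competent and stays on in Müller glia and some amacrine cells, had an FPKM of 72.1 at E15 and 62.0 at E18, then 101, 45.2, and 20.0 in Cd73NC and 26.0, 9.03, and 3.60 in Cd73PC. No neighbours in its order overlapped in their bounds. P2 Cd73NC was the highest library, 1.62-fold above E18 on FPKM + 1. Cd73NC stood 3.76-fold above Cd73PC at P2, 4.61-fold at P5, and 4.57-fold at P8.

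Sox9 (chromosome 11 from 112643524 to 112649071, plus strand), a factor of multipotent progenitors and of Müller glia, had an FPKM of 32.2 at E15 and 34.6 at E18, then 35.0, 43.8, and 18.2 in Cd73NC and 12.4, 7.62, and 3.21 in Cd73PC. Its course in Cd73NC differed in shape from that of Sox2, with the highest level at P5 instead of P2. In Cd73PC it was at 61.3% of its P2 level at P5 and at 25.8% at P8. Cd73NC was 2.68-fold, 5.19-fold, and 4.56-fold above Cd73PC, and the value at P5 was the widest gap between fractions of any member at that age. P2 Cd73NC, E18, and E15 overlapped in turn.

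Nr2e1 (chromosome 10 from 42281777 to 42303394, minus strand), the orphan nuclear receptor Tlx, which represses genes of differentiation in progenitors, had an FPKM of 49.5 at E15 and 46.9 at E18, then 48.0, 28.0, and 11.2 in Cd73NC and 19.0, 6.13, and 1.77 in Cd73PC. E15, P2 Cd73NC, and E18 overlapped in turn, and each library below them was apart from the next. Cd73NC was 2.45-fold above Cd73PC at P2, 4.07-fold at P5, and 4.43-fold at P8. As deposited, P8 Cd73PC held 9.31% of P2 Cd73PC, the lowest remaining share of any member in that fraction.

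Hmga2 (chromosome 10 from 119798331 to 119913991, minus strand), an AT-hook protein that bends DNA and shapes chromatin in young stem cells, was the least abundant member, with an FPKM of 7.15 at E15, 4.92 at E18, then 3.46, 1.09, and 0.519 in Cd73NC and 1.02, 0.478, and 0.282 in Cd73PC. E15 was the highest library and each later whole retina or Cd73NC library was lower than the one before. On the scale of FPKM + 1 the fractions were 2.21-fold apart at P2, 1.41-fold at P5, and 1.18-fold at P8, but as deposited Cd73PC was at 29.5%, 43.9%, and 54.4% of Cd73NC. At P8 the bounds of the fractions overlapped, and the sign of the difference turned after quantile normalization, so the fractions could not be told apart there. Reads of Hmga2 can also fall on Hmga2-ps1, a processed copy elsewhere in the genome, which had an FPKM between 0.211 and 2.15.

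Some levels are uncertain because other transcripts lie over or beside the gene. Sox2 lies inside Sox2ot, a long noncoding RNA on the same strand (chromosome 3 from 34459303 to 34576915), whose own FPKM was between 0.635 and 9.82 and thus below that of Sox2 in all 8 libraries. Six3os1 lies on the opposite strand and ends before the deposited span of Six3 starts. It reached 134 at E15 and 128 at E18, above Six3 itself, and was at 91.1 in P2 Cd73NC and 30.6 in P2 Cd73PC. The libraries kept no strand, so reads from a gene and a transcript that overlaps it on the opposite strand cannot be told apart. In gencode vM1 (NCBIM37) the span of Rax overlaps such a transcript (Raxos1), as do those of Six6 (4930447C04Rik), Lhx2 (Gm13584), Meis1 (Gm16140 and Gm16141), and Hmga2 (1700006J14Rik and 9230105E05Rik). The gencode spans of Six3 (Six3os1) and Pax6 (Pax6os1 and Elp4) also overlap such transcripts, though their deposited spans do not.

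The first question was how the fractions differ at each age. At P2, 8 of the 10 genes were higher in Cd73NC by over 1.5-fold (14.4% of all genes were) and 0 were higher in Cd73PC (8.56%). The 8 were Pax6, Six3, Six6, Lhx2, Sox2, Sox9, Nr2e1, and Hmga2. The median log2 ratio of the 10 members, Cd73PC over Cd73NC, was -1.22, beside -0.14 over the genes with FPKM of at least 1. Rax (0.18) and Meis1 (-0.05) were the members within 1.5-fold.

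At P5, 7 members were higher in Cd73NC (15.5% of all genes) and 0 in Cd73PC (7.02%). Rax (-0.18) and Meis1 (0.42) were within the limits. Hmga2 (-0.50) was within them on FPKM + 1 only, since as deposited it was 2.28-fold lower in Cd73PC with bounds that did not overlap, and the count was 8 with a pseudocount of 0 or 0.1. The median of the members was -1.75 on the log2 scale and that of expressed genes -0.18. Calls over all genes were 3392 higher in Cd73NC and 1531 higher in Cd73PC, and after quantile normalization 2367 and 2268, with the same member counts.

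At P8, 7 members were higher in Cd73NC (18.6% of all genes), and 2, Rax and Meis1, were higher in Cd73PC (7.54%). The log2 ratio of Rax was 1.27 and that of Meis1 1.16, while the other 8 were between -2.40 (Pax6) and -0.24 (Hmga2). The median was -2.09 over the members and -0.23 over expressed genes. Over all genes 4051 were higher in Cd73NC and 1644 in Cd73PC, which became 2758 and 2668 after quantile normalization.

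**Figure D2:**
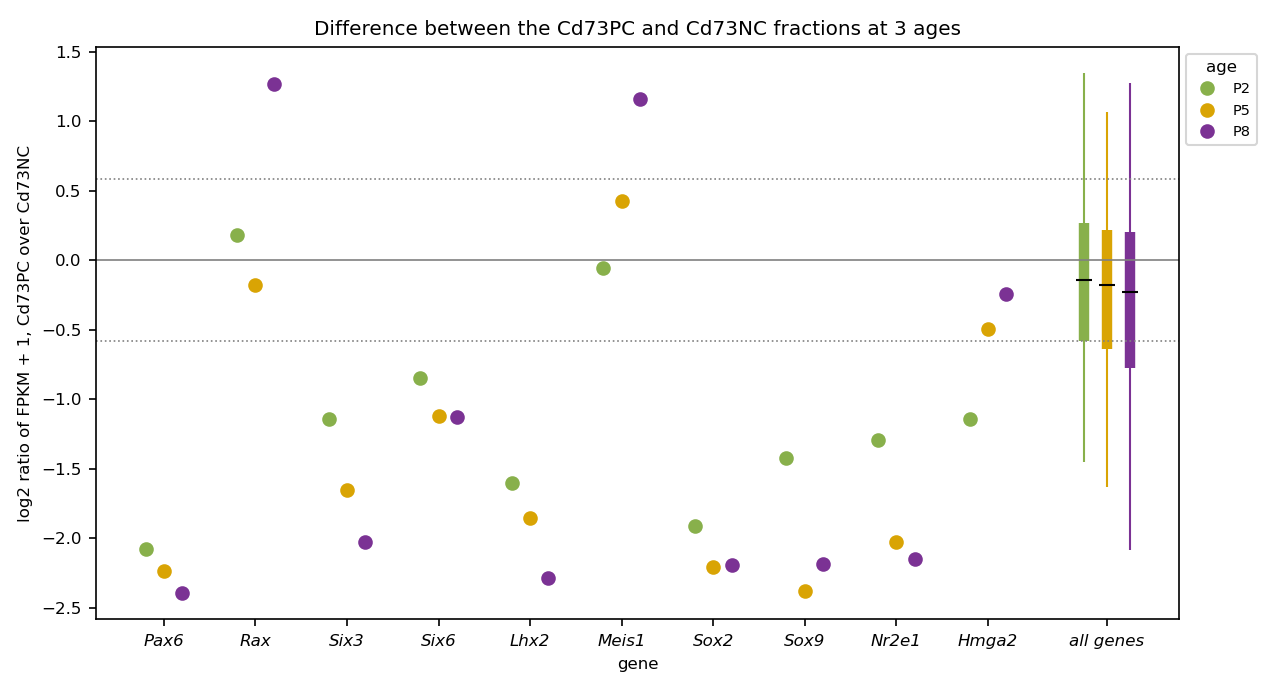
Log2 ratio of FPKM + 1, Cd73PC over Cd73NC, of each member at P2, P5, and P8 (points), beside all genes with FPKM of at least 1 in either library (tick at the median, thick bar from the 25th to the 75th and thin line from the 5th to the 95th percentile), with dotted lines at 1.5-fold. Rax and Meis1 lie above the upper line at P8, and 7 members lie below the lower line at all 3 ages.

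Markers of dividing cells, of Müller glia, and of rods also differed between the fractions, but on FPKM + 1 not all with the course of the members. The median log2 ratio of the dividing cell markers on that scale, Cd73PC over Cd73NC, was -1.66, -1.37, and -0.87 at P2, P5, and P8. That of the members was -1.22, -1.75, and -2.09. As deposited, dividing cell markers in Cd73PC stood at a median of 30.7%, 33.9%, and 28.1% of Cd73NC, so their gap narrowed on FPKM + 1 only. The 12 markers of dividing cells, Mki67 among them, were all lower in Cd73PC at P2, and their FPKM summed to 1188 in Cd73NC against 369 in Cd73PC. At P8, 9 of the 12 were lower and the sums were 72.9 and 62.5, of which Pcna made up 45.9 and 51.9. The median FPKM of the 12 at P8 was 2.12 in Cd73NC and 0.594 in Cd73PC. The 12 Müller glia markers, with Rlbp1 and Glul, had 8 lower in Cd73PC and 1 higher at P2 and 11 lower at P8, and their sum went from 1727 against 722 to 1969 against 517. All 8 rod markers were higher in Cd73PC at each age, with sums of 63.9 in Cd73NC and 3287 in Cd73PC at P2 and 870.0 and 12889 at P8. Among these markers and libraries the only FPKM of 0 was that of Abca8a, a Müller glia marker, in P2 Cd73PC. The part of these cell types in the differences of the members was not tested, and in bulk samples fewer cells of a type and less RNA per cell cannot be told apart.

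Other cell types differed between the fractions too. The 8 bipolar markers were all higher in Cd73NC at P8, with a sum of 1613 against 215. The 8 amacrine markers summed to 174 in Cd73NC and 89.9 in Cd73PC at P2 and to 16.4 and 52.2 at P8, where Slc6a9, a glycine transporter, made up 50.7 of the 52.2. Ganglion cell markers summed to 1012 at E15 and 591 at E18 but to between 4.32 and 24.4 in the 6 sorted libraries, so their transcripts were scarce in both fractions. At P2 microglia, pigment epithelium, and astrocyte markers were higher in Cd73PC, with sums of 33.3 against 5.88, 66.5 against 1.61, and 21.6 against 2.50. For microglia and astrocytes the order was the reverse later, with Cd73PC at 28.9 against 43.0 for microglia at P5 and 90.4 against 115 at P8, and at 7.24 against 28.1 and 7.05 against 19.3 for astrocytes. Pigment epithelium sums stayed higher in Cd73PC, at 64.2 against 46.3 and 114 against 61.6. Lens markers summed to at most 7.69, cone markers to between 36.05 and 508, and those of red blood cells to between 36.5 and 5170. Sums for horizontal cells (between 21.0 and 55.2) and blood vessels (between 12.8 and 169) rested mostly on 1 gene each in the sorted libraries, Sept4 (18.9 of 21.0 in P2 Cd73NC) and Kdr (139 of 169 in P2 Cd73NC), and describe those genes more than the cell types. Their part in the results was not tested.

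**Figure D3:**
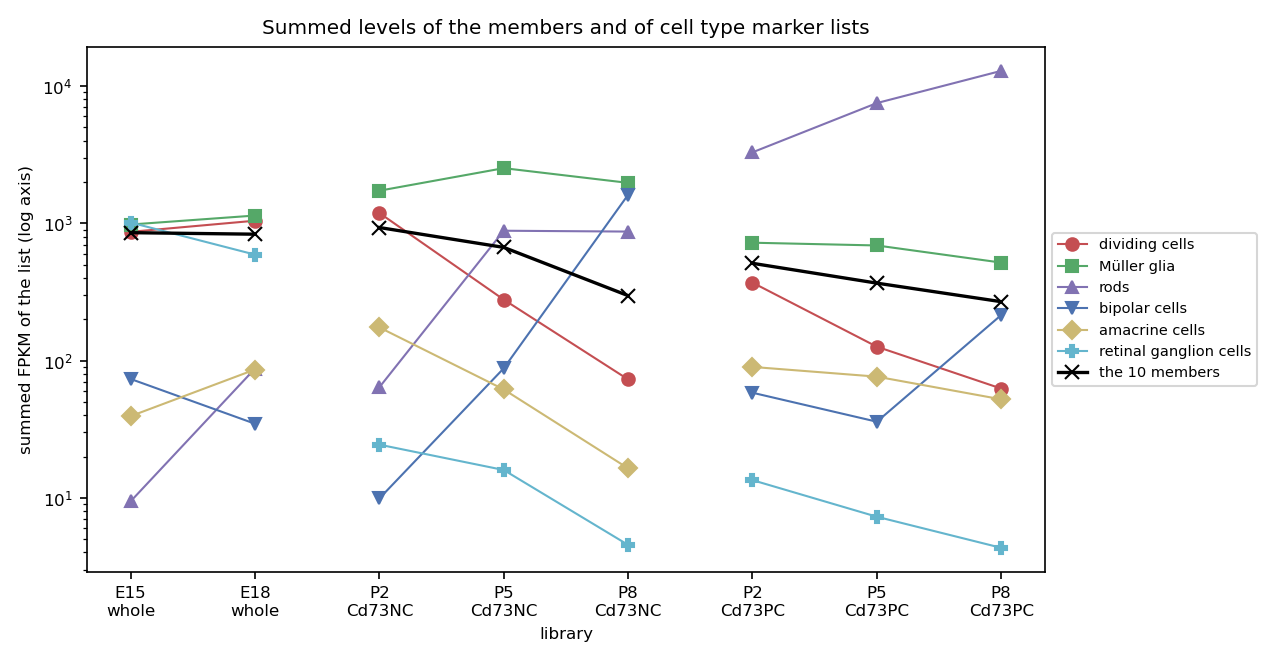
Summed FPKM (log axis) of the 10 members and of 6 marker lists in each library, with lines joining ages within whole retina, Cd73NC, and Cd73PC. The sum of the members stays between 268 and 931, while dividing cell markers go from 1188 to 72.9 in Cd73NC and rod markers reach 12889 in P8 Cd73PC.

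The second question was what happened between the embryonic ages and at the step to the sorted fractions. From E15 to E18, 0 members were higher at E18 by over 1.5-fold (4.61% of all genes) and 0 were higher at E15 (2.1%). Hmga2, with a log2 ratio of -0.46, came closest and was past the limit after quantile normalization, where calls over all genes went from 1005 higher at E18 and 457 higher at E15 to 782 and 656. The sum of the 10 members was 854 at E15 and 833 at E18.

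P2 Cd73NC was next set beside E18 retina, where sorting and age change together. Of the 10, 1 was higher in P2 Cd73NC (3.2% of all genes), namely Sox2 with a log2 ratio of 0.69, and 0 were lower (8.2%). Most of all genes were within 1.5-fold too, so the other 9 do not set the members apart. Six6, at 0.58, was just within the limit. The median of the members was 0.05, and it turned to -0.07 after quantile normalization, where Sox2 was no longer past 1.5-fold. Calls over all genes went from 698 higher in P2 Cd73NC and 1789 higher at E18 to 977 and 1211. The sum of the dividing cell markers was 1044 at E18 and 1188 in P2 Cd73NC.

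In P2 Cd73PC, 7 members were lower than at E18 (18.3% of all genes) and 0 were higher (8.77%). Rax (0.12), Six6 (-0.27), and Meis1 (-0.04) were within 1.5-fold. The largest differences were those of Pax6, with a log2 ratio of -1.97, and Hmga2, with -1.55. After quantile normalization the calls over all genes, 1914 higher in P2 Cd73PC and 3999 higher at E18, became 2743 and 2876.

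The third question was the course from P2 to P8 within each fraction. In Cd73NC all 10 members were lower at P8 than at P2 (14.3% of all genes) and 0 were higher (13.5%). The log2 ratios went from -2.74 (Pax6) and -2.28 (Sox2) to -0.91 (Sox9) and -0.65 (Six3), with a median of -1.57 beside -0.06 over expressed genes. Over the step to P5, 7 were lower (9.51% of all genes), all but Rax, Six3, and Sox9, and 0 were higher (7.93%). Over the step to P8, 8 were lower (7.78%), all but Six3 and Hmga2, 0 were higher (8.47%), and the largest difference was that of Rax, -1.73.

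In Cd73PC, 8 of 10 were lower at P8 than at P2 (14.7% of all genes) and 0 were higher (6.4%). Pax6 (-3.06), Nr2e1 (-2.85), and Sox2 (-2.56) had the lowest ratios, and Rax (-0.36) and Meis1 (-0.38) were within 1.5-fold. The step to P5 held 7 that were lower (8.56% of all genes) and 0 that were higher (3.36%), and the step to P8 held 7 that were lower (4.78%) and 0 that were higher (3.31%). These were the same 7 genes, Pax6, Six3, Six6, Lhx2, Sox2, Sox9, and Nr2e1. Calls over all genes between P2 and P8, 1396 higher at P8 and 3199 higher at P2, became 2163 and 2155 after quantile normalization.

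**Figure D4:**
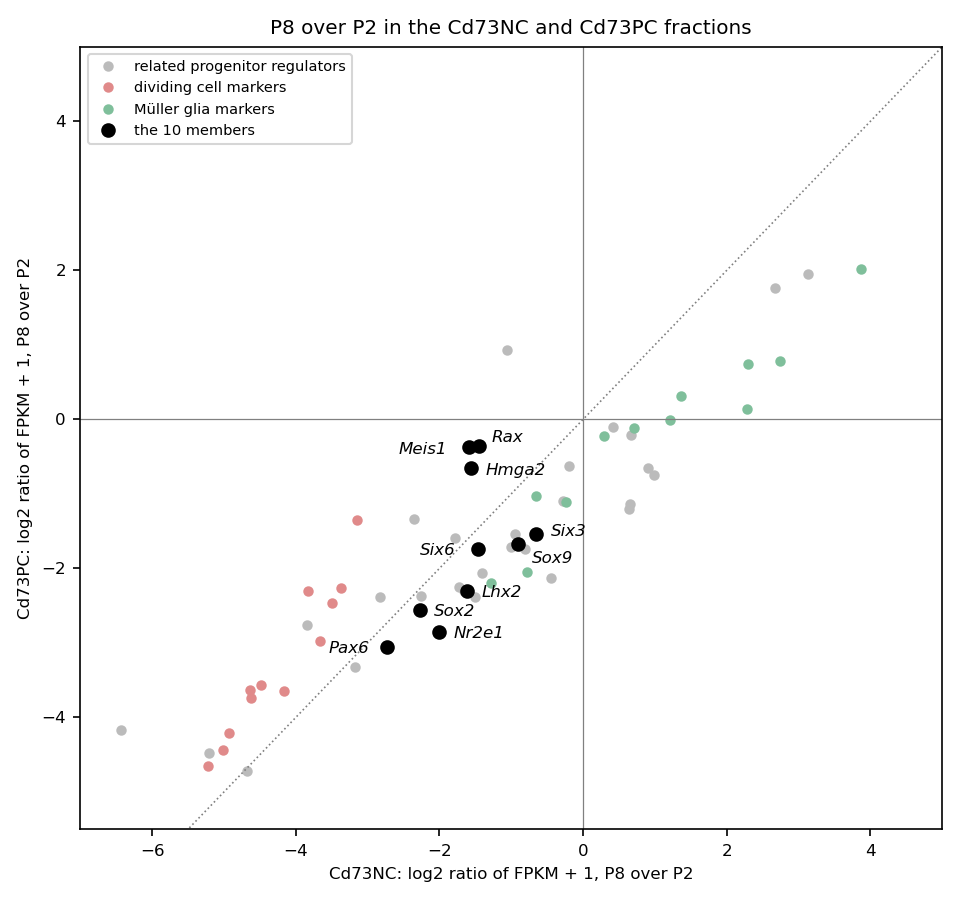
Log2 ratio of FPKM + 1 of P8 over P2 in Cd73NC (horizontal axis) and Cd73PC (vertical axis) for the 10 members (black), 28 related regulators (grey), 12 markers of dividing cells (red), and 12 of Müller glia (green), with equality as the dotted line. All members lie left of 0 in Cd73NC, between -2.74 and -0.65, and Rax and Meis1 lie near 0 in Cd73PC, at -0.36 and -0.38.

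Markers of dividing cells had lower median ratios of P8 over P2 than the members. The median log2 ratio of the 12 dividing cell markers was -4.33 in Cd73NC and -3.60 in Cd73PC, against -1.57 and -1.70 for the members. As deposited, these markers stood at P8 at a median of 3.16% of P2 in Cd73NC and 2.56% in Cd73PC. The order of the fractions for these markers was thus the reverse of that on FPKM + 1. All 12 were lower at P8 in both fractions, but the lists overlapped, and in Cd73PC the ratio of Pax6 (-3.06) was below those of Pcna (-1.35), Mcm2 (-2.27), and Plk1 (-2.30). Of the 12 Müller glia markers, 7 were higher and 3 lower at P8 in Cd73NC, with a median of 0.96, and 3 were higher and 4 lower in Cd73PC, with a median of -0.06. The difference between these lists was not tested.

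The summed level of the members shifted in its makeup. The sum was 931, 667, and 297 in Cd73NC at P2, P5, and P8 and 511, 366, and 268 in Cd73PC. Rax alone made up between 24.0% and 27.9% of it at E15, E18, and P2 Cd73NC, but 49.7%, 65.6%, and 73.7% in Cd73PC at P2, P5, and P8. Its share was 40.7% in P5 Cd73NC and 27.4% in P8 Cd73NC. The 8 genes other than Rax and Meis1, a grouping made after the values were seen, summed to 119%, 66.2%, and 36.2% of their E18 level in Cd73NC and to 39.5%, 17.2%, and 7.94% in Cd73PC. Of the 10 members, 5 were highest at E15, 3 in P2 Cd73NC, and 2 in P5 Cd73NC, and the lowest library was P8 Cd73PC for 8 and P8 Cd73NC for Rax and Meis1. FPKM of at least 1 was reached by all 10 in E15, E18, P2 Cd73NC, P2 Cd73PC, and P5 Cd73NC, and by 9 in the other libraries, where Hmga2 was below it.

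Likeness of pattern was measured as the root mean square difference of log2(FPKM + 1) over the 8 libraries after centring each gene, among the 10858 genes that reached FPKM 5. Within the members, Sox2 and Nr2e1 were closest at 0.20 and Pax6 and Rax farthest apart at 1.73. Rax and Meis1 stood 0.32 apart. The nearest genes to Pax6 were Myb (0.25), Neurog2 (0.30), and Plagl1 (0.31). Those nearest to Rax were Limd1 (0.18), Iqgap1 (0.20), and Shmt2 (0.25), and those nearest to Meis1 were Ift74 (0.14), Fgfr1op (0.15), and Pold3 (0.20). Six3 was closest to Tspan6 (0.11), Tle1 (0.12), and Plod2 (0.13), Six6 to Tpm4 (0.12), Sri (0.14), and Sap30 (0.14), and Lhx2 to Nkain4 (0.098), Espn (0.15), and Tbx3 (0.17). Sox2 was closest to Id2 (0.19), Hmx1 (0.19), and Nr2e1 (0.20), and Nr2e1 to Cdc25b (0.17), Sox2 (0.20), and Id2 (0.23). Sox9 was closest to Ildr2 (0.16), F2r (0.17), and Flna (0.17), and Hmga2 to Gm266 (0.13), Sfrp1 (0.13), and Ttf2 (0.15). The libraries share their depth and their mixture of cells in these distances, and of these 30 neighbours 16 were the same with a pseudocount of 0.1 and 20 after quantile normalization.

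Other regulators of progenitors were counted as a list of 28 genes, among them the Notch effectors Hes1 and Hes5, the cell cycle driver Ccnd1, and the proneural factors Neurog2 and Atoh7. In Cd73PC against Cd73NC, 19 were lower and 1 higher at P2, 22 lower and 1 higher at P5, and 22 lower and 2 higher at P8. The medians were -1.40, -1.71, and -1.76 on the log2 scale. Over all genes, 14.4%, 15.5%, and 18.6% were lower in Cd73PC at P2, P5, and P8, and 8.56%, 7.02%, and 7.54% higher. Tbx2 (-3.04) and Prox1 (-2.91) were among the lowest ratios at P8, and both are also known from differentiated retinal neurons. Pbx3, a partner of Meis factors, was higher in Cd73PC at P5 (1.30) and P8 (2.17).

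The course of this list was mixed where that of the members was not. Between P2 and P8 in Cd73NC, 17 of 28 were lower (14.3% of all genes) and 7 higher (13.5%), with a median of -1.03. In Cd73PC 23 were lower (14.7%) and 3 higher (6.4%), with a median of -1.65. Atoh7 (-6.44), Fgf15 (-5.20), and Ccnd1 (-4.68) had the lowest ratios in Cd73NC. Ccnd1 went from an FPKM of 1095 in P2 Cd73NC to 41.8 in P8 Cd73NC. Otx2, a photoreceptor and bipolar factor, went the other way, from 349 to 552.

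Family relatives of the members were more mixed. The list held 22 genes from the families of Pax6, Sox2, Six3, Lhx2, Meis1, Nr2e1, and Hmga2. In Cd73PC 9 were lower (14.4% of all genes) and 4 higher (8.56%) at P2, and 12 lower (15.5%) and 1 higher (7.02%) at P5. At P8 13 were lower (18.6%) and 2 higher (7.54%). The medians were -0.25, -0.99, and -0.88. The counts of higher genes at P5 and P8 were near those shares and do not set the list apart. Nr2e3, the rod nuclear receptor and nearest relative of Nr2e1, was at 950 in P2 Cd73PC and 7.63 in P2 Cd73NC, the reverse of Nr2e1. Lhx3 (-3.63 at P8) and Lhx4 (-3.01), both bipolar factors, were lower in Cd73PC, and in Cd73NC they went from an FPKM of 0.808 and 5.39 at P2 to 74.8 and 81.2 at P8, while Lhx2 went from 141 to 45.2. Sox4 and Sox8, the other abundant relatives, were lower in Cd73PC at P8, with log2 ratios of -2.57 and -2.49.

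The Lin28 and let-7 axis was set beside Hmga2 as a list of 8 genes known to act upstream or downstream of these microRNAs. From E15 to E18, 3 of the 8 were lower, Igf2bp1 (-1.15), Igf2bp3 (-1.02), and Igf2bp2 (-0.70), RNA-binding proteins of fetal cells, and 0 were higher. Over all genes 2.1% were lower and 4.61% higher. Between P2 and P8, 4 were lower in each fraction (14.3% of all genes in Cd73NC and 14.7% in Cd73PC). The log2 ratios in Cd73NC were -2.98 for Igf2bp2, -2.27 for Igf2bp1, and -1.86 for Igf2bp3. Between the fractions, 1 of 8 was lower in Cd73PC at P2 (14.4% of all genes) and at P5 (15.5%), which is near those shares. At P8 Hmga1 (0.84) and Igf2bp2 (0.71) were higher in Cd73PC (7.54% of all genes). Lin28a, Lin28b, and Trim71 were at most at 0.181 in the sorted libraries, too low to pass 1.5-fold on FPKM + 1. Hmga1, the relative of Hmga2 with many copies in the genome that can take its reads, was at 52.0 at E15, where Hmga2 was at 7.15, and at 29.9 in P8 Cd73PC, where Hmga2 was at 0.282. Dis3l2, the nuclease that degrades the let-7 precursor, was between 16.6 and 19.5 in all 8 libraries.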

How the data were processed

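RNA of 8 samples, 1 library each, was sequenced as single-end reads of 36 bases from cDNA made with random primers, which keeps no strand. The submitters' processing notes name CASAVA 1.8.2, bcl2fastq 1.8.4, TopHat2 2.0.8b, Cufflinks 2.1.1, and build mm9. The authors deposited, for each library, a table of 23021 rows with the FPKM of Cufflinks and its lower and upper confidence bounds. These FPKM values were divided by transcript length and by mapped fragments before deposit, and read counts were not used here. Groups were taken from the sample titles.

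The 10 members and all gene lists were chosen with earlier results of these data known. From the deposited FPKM, 798 rows of small RNAs were left out by symbol, rows that share a symbol were summed, and failed estimates, between 4 and 10 rows per library, were taken as missing, which left 21826 genes. Of 21187 genes with 1 row and a symbol in gencode vM1 (NCBIM37), 21112 overlapped their annotated place. Ratios were taken on FPKM + 1 and counted past 1.5-fold. With 1 library per group no test was made, and depth is known only relative to E18, so no counting interval is given. Named are the 10 members, the 3 genes nearest in pattern to each, from each other list up to 3 genes with the highest summed FPKM and up to 3 with the largest absolute log2 ratio in the comparison described, and Nt5e. Further genes were named after their values were seen. All 164 listed genes were found. Promoters came from RefSeq (GRCm38.p6), a later build than that of the tables, and no coordinates were converted. Alternatives were pseudocounts of 0 and 0.1, a filter at FPKM 1, upper quartile and quantile scaling, a 2-fold limit, bounds that do not overlap, and small RNAs kept. Analyses used Python 3.11.15, numpy 2.4.6, pandas 2.3.3, and matplotlib 3.10.9, and the scripts were tested on simulated data.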

Additional observations from a re-analysis of the deposited data

Results flagged for a closer look

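Rax, Meis1, and Sox9 had ratios of opposite sign in conditions that were compared in the same way, several of them within 1.5-fold. Each condition is 1 library, and none of these differences was tested.

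For Rax, the log2 ratio of Cd73PC over Cd73NC was 0.18 at P2 and -0.18 at P5, a difference of 0.36. It was 1.27 at P8, so that the difference from P5 to P8 was -1.44 (the ratio at P5 minus that at P8). In Cd73NC the level of Rax was higher at P5 than at P2, with a log2 ratio of 0.28, while in Cd73PC it was -0.08, a difference of 0.36 between the fractions. The ratios at P2 and P5 are within 1.5-fold, and the bounds of P2 and P5 Cd73PC overlapped. In Cd73NC at P2, P5, and P8 the rod markers summed to 63.9, 882, and 870, and Nt5e was at 2.43, 31.4, and 9.38. Their part in the course of Rax was not tested.

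For Meis1, the ratio of Cd73PC over Cd73NC, -0.05 at P2, was 0.42 at the P5 sort and 1.16 at the P8 sort, and the ratio at P2 minus the later ones was -0.48 and -1.21. The value at P2 lies within overlapping bounds, and it was 0.04 after upper quartile scaling and 0.01 after quantile normalization, so its sign is not settled.

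For Sox9, the step from P2 to P5 gave a log2 ratio of 0.31 in Cd73NC and -0.64 in Cd73PC, a difference of 0.95. Over the same step the Müller glia markers summed to 1727 and then 2520 in Cd73NC and to 722 and then 689 in Cd73PC, and their part in the course of Sox9 was not tested.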

How the results depend on the processing

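The fractions of an age came from the same retinas, but a fit of fraction with age as a block over the 6 sorted libraries was not made, and no group has a second library from which 1 could be left out. Of the counts and medians that answer a comparison, 156 moved by less than 1.5-fold and 6 by more. The 156 include 16 counts under the filter at FPKM 1 and 16 with small RNAs kept. These could not move, because neither setting removes a member or changes its FPKM. Also among the 156, the median of the members in P2 Cd73NC against E18, 0.05, turned to -0.07 after quantile normalization. After quantile normalization 1 member (Hmga2) was higher at E15 than at E18 instead of 0. The count of members higher in P2 Cd73NC than at E18, reported as 1, was 2 (Six6 and Sox2) with a pseudocount of 0.1 or of 0 and 0 after quantile normalization or with a 2-fold limit. Of the 30 genes nearest in pattern, 16 stayed with a pseudocount of 0.1. Each single ratio was counted once under each pseudocount (0 and 0.1) and each scaling (upper quartile and quantile). In these counts 311 stayed within 1.5 times their value, and the 9 that did not were all of Hmga2 with a pseudocount of 0 or 0.1. Ratios that were within 1.5-fold turned their sign in 5 cases under upper quartile scaling and in 7 after quantile normalization, most of them in P2 Cd73NC against E18, and no ratio past the limit did. Quantile normalization moved the median ratio of all expressed genes by 0.11, 0.19, and 0.25 (log2) between the fractions at P2, P5, and P8, by 0.17 in P2 Cd73PC against E18, and by 0.19 in Cd73PC from P2 to P8, and upper quartile scaling moved it by 0.11 at P5 and 0.10 in Cd73PC from P2 to P8. The share of all genes past the limit was between 2.1% and 18.6% as reported, between 11.2% and 42.7% with a pseudocount of 0, and between 0.573% and 10.8% at 2-fold. Without counts, the depth behind values near 0, such as those of Hmga2 after P2, could not be judged.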

Other observations

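Ratios between members within a library are untouched by a scaling factor between libraries, though not by quantile normalization, which was not applied to them. Sox9 over Sox2, on FPKM as deposited, was 0.446 at E15, 0.559 at E18, 0.348 in P2 Cd73NC, and 0.477 in P2 Cd73PC, and between 0.844 and 0.968 in the 4 libraries of P5 and P8, whichever the fraction. The ratio was thus nearer to 1 in all 4 later libraries than in any earlier one, in both fractions, although each factor differed between the fractions by 2.68-fold or more on FPKM + 1.

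Six3 over Six6 was higher in Cd73NC than in Cd73PC at each age, with 1.67 against 1.36 at P2, 1.85 against 1.28 at P5, and 2.99 against 1.61 at P8. Rax over Pax6 was 1.15 at E15, 1.32 at E18, and 1.18 in P2 Cd73NC, and 5.73, 18.4, and 44.5 in Cd73PC at P2, P5, and P8. It was 4.18 in P5 Cd73NC and 2.95 in P8 Cd73NC. No test was made of these ratios, which rest on single libraries.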
